A study of Mus musculus with 6 samples.

Results

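The genes described here encode the 10 N-terminal acetyltransferase subunits Naa10, Naa15, Naa16, Naa20, Naa25, Naa30, Naa35, Naa38, Naa40 and Naa50, taken by gene symbol from the 25353 genes of the deposited table. All 10 were present and all 10 passed the filter on low values. The family was chosen by the KO to WT differences in normalized read count that these same libraries had shown, so those differences are given as a description of the members and support nothing by themselves. The study sequenced RNA of mouse germinal vesicle (GV) oocytes, which are held in meiotic prophase, to ask what losing mitofusin 2 does to them. There were 3 libraries of wild-type (WT) mice and 3 of knockout (KO) mice, all on the C57BL/6J strain, stated as 8 weeks old in the design and as P1 in the age field. The collection protocol also speaks of oocytes from secondary follicles, so the stage of growth is not settled by the labels. Each library came from 5 pooled oocytes. The labels name neither a Cre driver nor a floxed allele and do not tie a pool to a mouse, so the spread between libraries may be technical in part.

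N-terminal acetyltransferases (NATs) move an acetyl group from acetyl-CoA to the first amino group of a protein, for most substrates while the chain is still leaving the ribosome. The mark is among the most common protein modifications in animal cells, it is not known to be removed, and it affects protein folding, complex formation, localisation and turnover. Catalytic subunits share the GNAT fold. NatA, NatB and NatC also need large auxiliary subunits that anchor them to the ribosome and shape substrate choice. NatA pairs Naa10 with Naa15 or its paralog Naa16, NatB pairs Naa20 with Naa25, and NatC joins Naa30, Naa35 and Naa38. Naa40 (NatD) acts alone on histones H2A and H4, and Naa50 (NatE) docks on NatA.

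Libraries held 6450191 to 7992598 reads assigned to genes, as recovered from the deposited values. Mfn2, named in the series title, had 25.5, 38.1 and 32.3 normalized read counts in WT and 5.25, 5.28 and 4.50 in KO. Mfn1, which the genotype field names in its place, had a mean of 340.4 ± 36.3 in WT against 386 ± 10.3 in KO (SD over 3 libraries). The names WT and KO below are those of the labels. Oocyte markers such as Zp3 and Gdf9 (12 of 12 genes) summed to 115634 to 145658 normalized read counts in WT and 86543 to 132481 in KO. Zp1 and Nlrp5 were lower in every KO library than in any WT library. So were 11.7% of all tested genes. The other markers of the list overlapped between the groups, among them Nobox (2582 to 3208 in WT, 2409 to 3883 in KO) and Ddx4 (199 to 230, 210 to 505). Of markers of other ovarian cells, those of theca and stroma (8 of 10 genes in the table) summed to 773, 48.4 and 129 in WT replicates 1 to 3 and to between 12.6 and 16.9 in KO, with Col1a1 at no more than 3 reads in every library. Of these sums, Cyp11a1 gave 604, 13.9 and 92.3 in WT replicates 1 to 3 and 3.15 to 5.28 in KO. The granulosa list (10 of 10 genes) summed to 626 to 827 in WT and 528 to 671 in KO, with Amh and Foxl2 at no more than 3 reads. Its largest part was Cyp19a1, with 363, 405 and 445 in WT and 303, 336 and 301 in KO, all below WT. Nr5a2 stood at 136 to 146 in WT and 143 to 171 in KO. The endothelial list (6 of 6 genes, Cdh5 and Eng at no more than 3 reads) summed to 196 to 254 in WT and 183 to 269 in KO, and the surface epithelium list (5 of 6 genes, Krt18 and Krt19 at no more than 3 reads) to 17.5 to 29.9 and 14.8 to 29.4. Most of the endothelial sum came from Pecam1 (149 to 187 in WT, 138 to 213 in KO). The immune list (7 of 8 genes) summed to 379 to 454 in WT and 468 to 610.3 in KO, most of it from C1qb (331 to 430 and 453 to 592), while Adgre1 had no more than 3 reads. Other immune markers went the other way. Cd68 was lower in every KO library (8.45 to 14.4) than in any WT library (18.9 to 21.4). C1qa, Lyz2 and Cd74 were at 0 in KO and at up to 6.65, 24.4 and 24.4 in WT. Csf1r overlapped between the groups. The part of other cells in the results below was not tested. In pooled oocytes, fewer cells and less RNA per cell cannot be told apart.

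The members lie on 9 chromosomes of GRCm38. The NatA genes are Naa10 (chromosome X, 73916873 to 73921944, minus strand), Naa15 (chromosome 3, 51415148 to 51476507, plus strand) and Naa16 (chromosome 14, 79325269 to 79390778, minus strand). The NatB genes are Naa20 (chromosome 2, 145902099 to 145916425, plus strand) and Naa25 (chromosome 5, 121397936 to 121444378, plus strand). The NatC genes are Naa30 (chromosome 14, 49172226 to 49191031, plus strand), Naa35 (chromosome 13, 59585259 to 59635922, plus strand) and Naa38 (chromosome 11, 69395487 to 69396680, plus strand). Naa40 lies on chromosome 19 (7225668 to 7241222, minus strand) and Naa50 on chromosome 16 (44139830 to 44163366, plus strand). The counts span whole genes, exons and untranslated ends together, and the kit keeps no strand. Naa25 overlaps Erp29 on the other strand, with which 31.2% of its 75-base windows are shared, and Naa35 overlaps Golm1 in the same way (32.9%). Naa38 shares 12.5% of its windows with Tmem88 and Naa10 16.7% with Arhgap4 and the model Gm14274. For these 4 genes the reads of the partner cannot be separated. Naa15, Naa20, Naa30 and Naa50 shared no window with another gene, and Naa16 and Naa40 shared 0.6%.

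RefSeq promoter windows (GRCm38.p6, 300 bases around the annotated start) were matched for 8 of the 10 members. The windows of Naa20 and Naa30 are shown because these 2 genes had the KO calls given below, and those of Naa15 and Naa16 because these paralogs stood furthest apart in level, a choice made after their values were seen. Capitals mark matches, on either strand, to the 7 motifs searched.
Naa20 (chr2:145902991-145903290, plus strand): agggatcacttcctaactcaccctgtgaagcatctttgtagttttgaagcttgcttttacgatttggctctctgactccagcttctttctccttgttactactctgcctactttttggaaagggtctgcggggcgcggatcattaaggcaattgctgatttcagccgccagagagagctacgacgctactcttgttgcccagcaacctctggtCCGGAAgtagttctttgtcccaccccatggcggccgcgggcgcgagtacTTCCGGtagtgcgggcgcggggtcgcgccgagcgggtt
Naa30 (chr14:49171996-49172295, plus strand): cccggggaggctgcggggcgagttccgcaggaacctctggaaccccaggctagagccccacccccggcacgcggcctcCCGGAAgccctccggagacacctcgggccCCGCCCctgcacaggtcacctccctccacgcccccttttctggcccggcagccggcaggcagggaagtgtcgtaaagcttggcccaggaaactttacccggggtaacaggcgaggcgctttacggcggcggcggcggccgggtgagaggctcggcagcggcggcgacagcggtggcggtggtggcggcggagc
Naa15 (chr3:51415766-51416065, plus strand): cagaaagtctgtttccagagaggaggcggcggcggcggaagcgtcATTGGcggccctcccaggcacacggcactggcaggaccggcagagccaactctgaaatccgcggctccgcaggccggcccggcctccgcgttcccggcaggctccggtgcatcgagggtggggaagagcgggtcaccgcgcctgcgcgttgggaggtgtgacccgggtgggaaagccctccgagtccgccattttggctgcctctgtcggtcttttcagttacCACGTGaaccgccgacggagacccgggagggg
Naa16 (chr14:79390619-79390918, minus strand): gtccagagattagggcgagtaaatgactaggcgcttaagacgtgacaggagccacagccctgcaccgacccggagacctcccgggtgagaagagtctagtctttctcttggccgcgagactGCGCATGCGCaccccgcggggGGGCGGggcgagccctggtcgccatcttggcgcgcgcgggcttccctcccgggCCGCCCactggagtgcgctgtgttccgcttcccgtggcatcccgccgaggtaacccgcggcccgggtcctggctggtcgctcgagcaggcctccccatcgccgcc
The ETS core CCGGAA was held by Naa20 and Naa30, and also by Naa35, against 14.9% of the 32851 promoter windows of the genome. The 8 members had 10 windows, and a member was counted if any of its windows held the motif. The percentages are over single windows, so the 2 measures are not alike. The GC box GGGCGG was held by 6 of the 8 members, Naa16 and Naa30 among them (35.7% of all windows). The CCAAT box CCAAT was held by Naa10 and Naa15 (37.4%), the E-box CACGTG by Naa15 (7.15%) and the NRF1 motif GCGCATGC by Naa16 (2.71%), where matches on the 2 strands overlap. No match overlapped one to another motif in the 4 windows shown. The CRE TGACGTCA (1.79%) and the TATA box TATAAA (13.6%) were held by none of the 8. The windows of the members had a median GC content of 68.2% and a median of 32 CpG pairs, against 52.7% and 7 over all windows. The windows of Naa20 and Naa15 begin 892 and 618 bases inside the gene start of the other annotation used here, GENCODE M21, so other starts are not covered. A match describes letters and not a bound site.

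The subunits were present at very unequal levels in WT oocytes. Per kb of the longest transcript, Naa38, a small Sm-like NatC subunit, was highest at 1458 ± 111 normalized reads per kb (SD, n = 3), a value above that of 97.1% of 14063 tested protein-coding genes. It was followed by Naa20 at 384 ± 23.6, Naa50 at 383 ± 35.8, Naa35 at 247 ± 14.2 and Naa30 at 206 ± 26.9. Lower stood Naa10 at 82.5 ± 7.47, Naa16 at 76.1 ± 1.73, Naa25 at 40.6 ± 5.17, Naa40 at 36.6 ± 3.23 and, last, Naa15 at 11.3 ± 3.21, which was above 41.1% of coding genes. The WT libraries of neighbours in this order were apart in 6 of 9 pairs. Naa20 and Naa50, Naa10 and Naa16, and Naa25 and Naa40 did not differ beyond their spread. Per kb of coding length Naa50 led at 3274 ± 306, before Naa38 at 2608 ± 198, and 9 of 10 members took another place, although Naa15 stayed last. The length of the transcripts that these oocytes use was not measured here, and Naa15 was the member whose place held under each length tried.

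**Figure D1:**
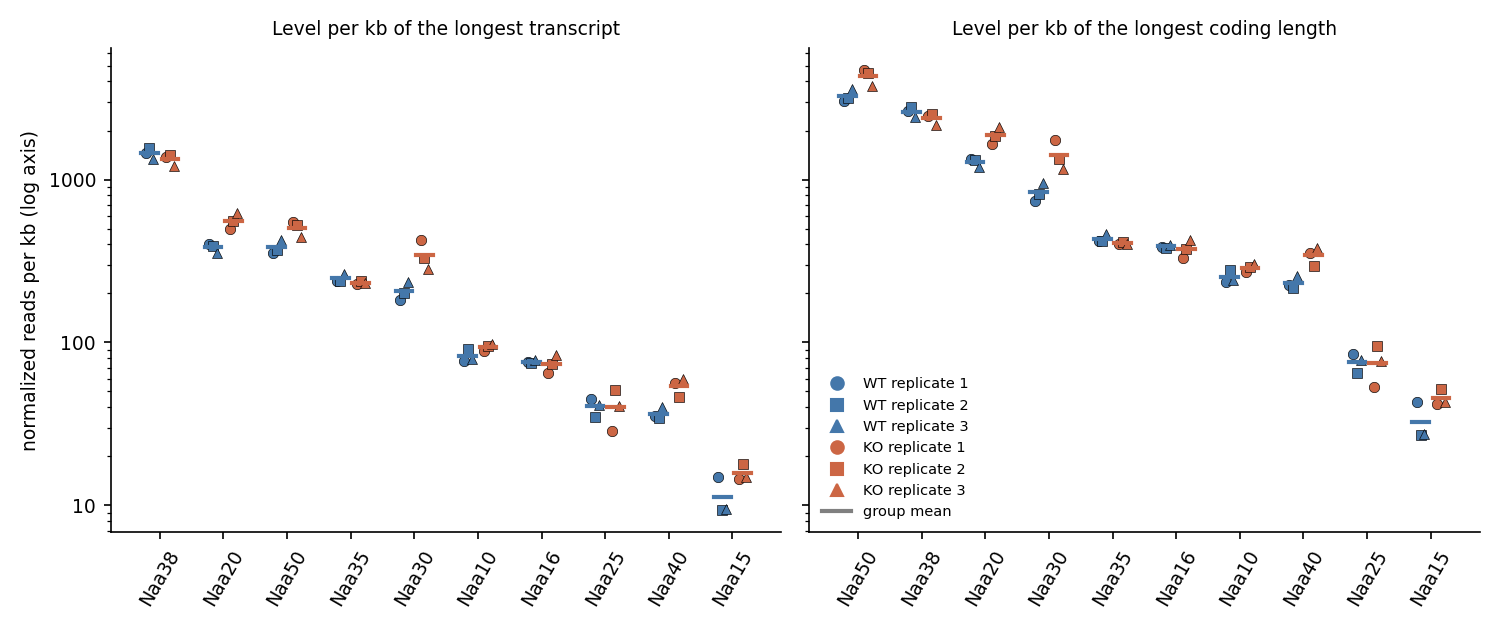
Normalized reads per kb (log axis) of each subunit in the 3 WT (blue) and 3 KO (orange) libraries, per kb of the longest transcript (left) and of coding length (right), ordered by the WT mean, with lines for group means. Naa15 is lowest in both panels, and Naa38 and Naa50 lead the left and right panel.

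The paralogs of NatA were unequal in each of the 6 libraries. Naa16, the less studied auxiliary subunit, had 1006, 984 and 1029.6 normalized read counts in WT and 860.3, 973 and 1099.8 in KO. Naa15, the auxiliary subunit of NatA in most cells, had 112, 69.7 and 71.1 in WT and 108, 134 and 112 in KO. In reads, Naa16 exceeded Naa15 by 7.25 to 14.5 times. Per kb of the longest transcript the ratio was 7.08 ± 1.74 in WT and 4.73 ± 0.76 in KO (SD over 3 libraries), and these groups overlapped. Per kb of coding length, the ratio ran from 7.26 to 14.5.

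Naa10, the catalytic subunit of NatA and an X-linked gene, had 166, 196 and 171 normalized read counts in WT and 191, 205 and 212 in KO. Its groups overlapped, and the log2 fold change was 0.19 (SE 0.15). Naa11, an autosomal paralog of Naa10 known mostly from testis (chromosome 5, 97382198 to 97392379, minus strand), had 505, 476 and 619 in WT and 550.4, 591 and 597 in KO. It shared none of its 75-base windows with Naa10 or any other gene. Per kb of the longest transcript Naa11 stood at 1.53 to 2.28 times Naa10 in WT and at 1.77 to 1.81 times in KO, and by coding length at 2.62 to 3.90 times over all 6 libraries.

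**Figure D2:**
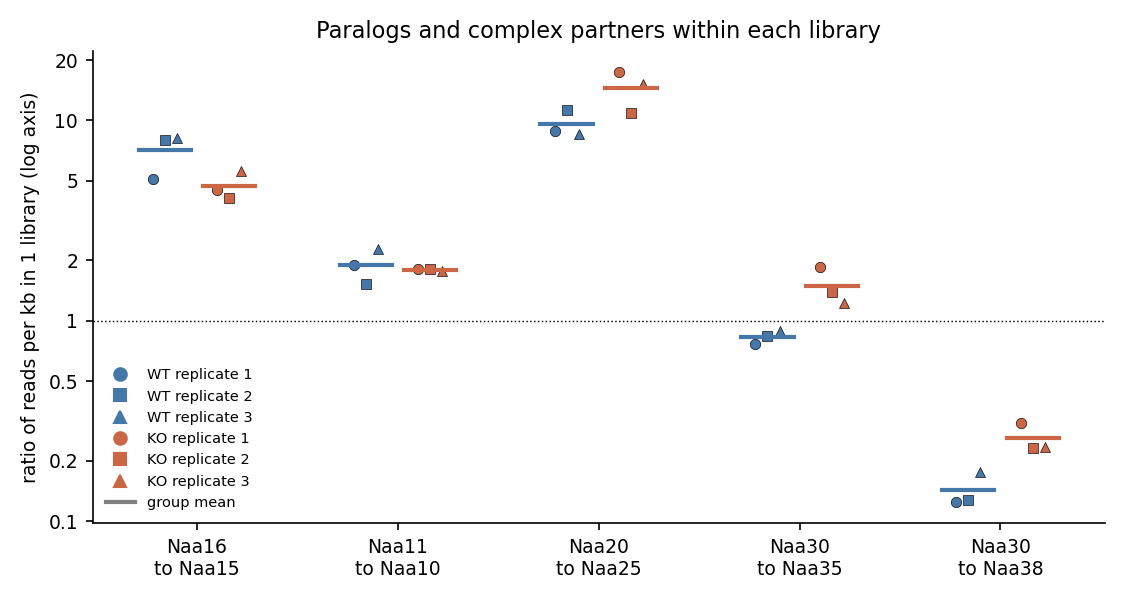
Ratio of normalized reads per kb of the longest transcript within each library (log axis) for paralogs and complex partners, with WT libraries in blue, KO libraries in orange and lines for group means. Naa16 exceeds Naa15 and Naa11 exceeds Naa10 in all 6 libraries, and the ratio of Naa30 to Naa35 is 0.76 to 0.89 in WT and 1.22 to 1.86 in KO.

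In the contrast by which the family was chosen, Naa20 and Naa30, both catalytic subunits, had higher normalized read counts in KO than in WT libraries. All 5 catalytic subunits had log2 fold changes above 0, from 0.19 to 0.73, while 4 of the 5 auxiliary subunits lay between -0.13 and -0.04 and the other, Naa15, at 0.51. This division by role was drawn with the values known and carries no test. In limma-trend over all 18762 tested genes at a Benjamini-Hochberg adjusted p below 0.05, Naa20 and Naa30 were called higher, 2 of 10, where 1.87% of all genes were (3.28% in either direction). None of the 10 was called lower by limma (1.41% of all genes), edgeR (2.58%) or DESeq2 (3.61%). The edgeR share is over 13078 genes and the DESeq2 share over 11098, those with an adjusted p. At an unadjusted p below 0.05 in limma, 5 were higher and 0 lower, against 9.16% and 8.83% of all genes. Libraries of the groups were fully separate for 4 members higher in KO (11.5% of all genes) and 1 lower (11.7%), or 23.2% of all genes in either direction. The median log2 fold change was 0.30 over the members and -0.01 over all tested genes. Because this contrast chose the family, nothing is read from these counts.

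**Figure D3:**
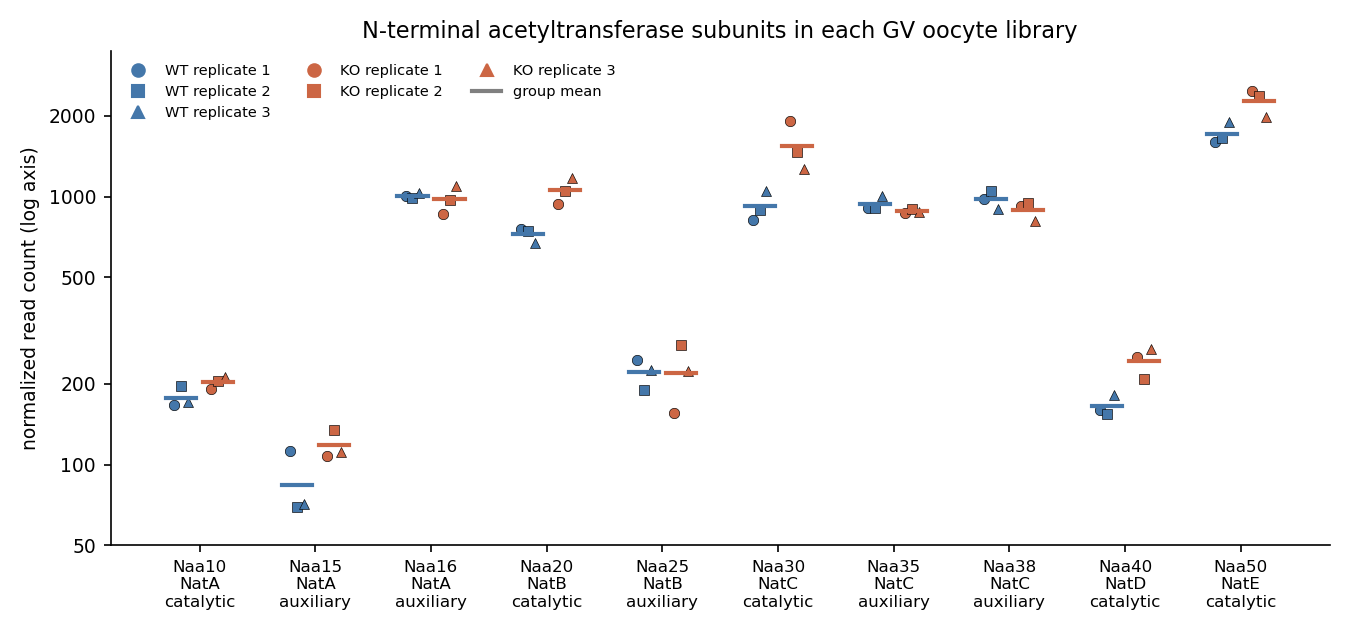
Normalized read count (log axis) of each subunit in each library, with WT in blue, KO in orange, symbols for replicates and lines for group means. KO libraries lie above all WT libraries for Naa20, Naa30, Naa40 and Naa50, and below them for Naa35.

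Naa30, the catalytic subunit of NatC, which acetylates methionine followed by a hydrophobic residue, had the highest log2 fold change with all 6 libraries. It had 816, 894 and 1052 normalized read counts in WT and 1908, 1463 and 1266 in KO. All KO libraries were above all WT libraries, with KO replicate 1 highest, the library in which the oocyte markers summed lowest (86543). The log2 fold change was 0.73 (SE 0.14), or 0.57 without KO replicate 1, where Naa20 was higher (0.62). Naa30 was no longer called when WT replicate 1 was dropped (0.65 on the log2 scale) or when WT replicate 2 was (0.72). Theca and stroma markers summed highest in WT replicate 1 (773, of which Cyp11a1 alone gave 604) and, among WT libraries, lowest in WT replicate 2 (48.4). Higher calls over all genes also fell in these fits, from 351 to 172 and 130 with the filter applied anew. Without WT replicate 3 they fell to 71, and Naa30 was still called (0.83). Whether the oocyte or the theca and stroma sums bear on the Naa30 values was not tested. Without WT replicate 1, Naa15 was higher than Naa30 (0.73).

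Neither partner of Naa30 was called. Naa35, the large auxiliary subunit of NatC, had 908, 907 and 1001 normalized read counts in WT and 869.8, 898 and 879 in KO. The KO libraries were all slightly lower, by 0.09 on the log2 scale (log2 fold change -0.09, SE 0.10), with Golm1 on the other strand at 632 ± 43.7 in WT and 522 ± 126 in KO. Naa38 had 981, 1051 and 902 in WT and 925, 945 and 812 in KO, which overlapped (log2 fold change -0.13, SE 0.11). Tmem88 and Cyb5d1, which both overlap Naa38 on the other strand, were at no more than 23.3 and 27.9 in any library. Within a library, the ratio of Naa30 to Naa35 per kb of the longest transcript was 0.76, 0.84 and 0.89 in WT and 1.86, 1.38 and 1.22 in KO. The ratio of Naa30 to Naa38 was 0.13 to 0.18 in WT and 0.23 to 0.31 in KO. Neither ratio overlapped between groups. Both hold Naa30, a member of a family chosen by its KO to WT differences, so nothing is read from them.

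Naa20, the catalytic subunit of NatB, which acetylates methionine followed by an acidic or amide residue, had 754, 741 and 671 normalized read counts in WT. It had 936, 1048 and 1178 in KO, all above WT. The log2 fold change was 0.54 (SE 0.12). The call was kept without KO replicate 1 (0.62) and lost without WT replicate 1 (0.57), WT replicate 2 (0.56), WT replicate 3 (0.49), KO replicate 2 (0.54) or KO replicate 3 (0.46). Its auxiliary partner Naa25 had 246, 191 and 226 in WT and 155, 279 and 223 in KO. The KO libraries of Naa25 lay on both sides of the WT libraries (log2 fold change -0.04, SE 0.19), and its sign turned without WT replicate 1 (0.04) or KO replicate 1 (0.18). Erp29, which overlaps Naa25, stood at 594 ± 31.8 in WT and 513 ± 54.0 in KO. The ratio of Naa20 to Naa25 per kb of the longest transcript was 9.56 ± 1.46 in WT and 14.5 ± 3.34 in KO (SD over 3 libraries), and the groups overlapped.

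**Figure D4:**
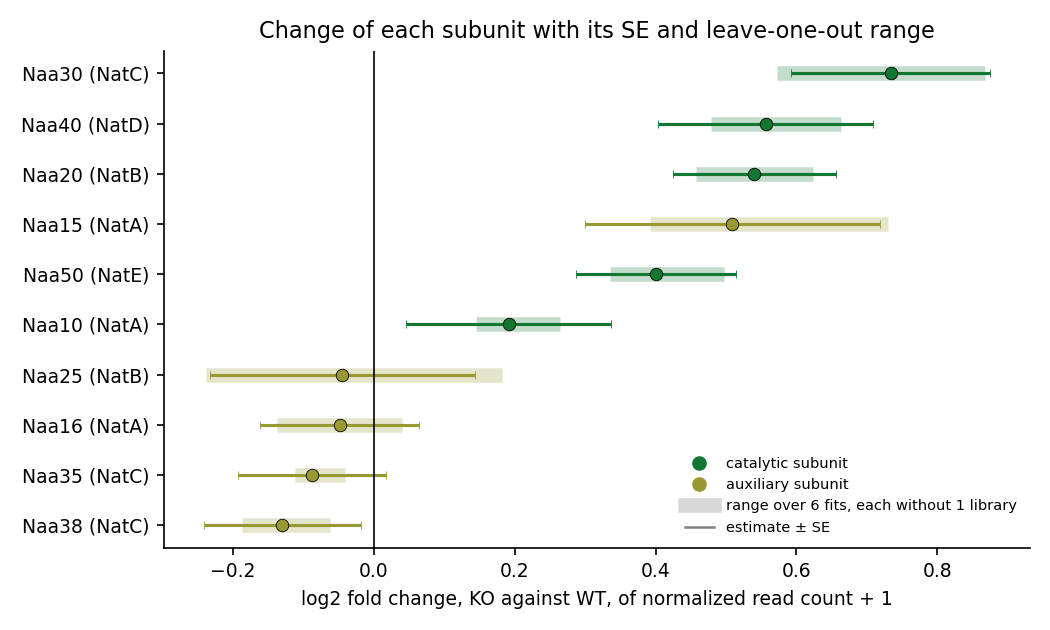
Log2 fold change of each subunit, KO against WT (points, bars for the SE), with the range over the 6 fits that each leave out 1 library (pale bands), and catalytic subunits in green and auxiliary subunits in olive. The bands of Naa16 and Naa25 cross 0, those of Naa35 and Naa38 lie below 0, and those of Naa10, Naa15, Naa20, Naa30, Naa40 and Naa50 lie above 0.

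Naa40, the histone NAT, had 159.7, 154 and 182 normalized read counts in WT and 253, 209 and 271 in KO, again without overlap. Its log2 fold change was 0.56 (SE 0.15). Naa50, which also acts in sister chromatid cohesion, had 1599, 1656 and 1901 in WT and 2478, 2364.5 and 1978 in KO. The gap between the highest WT and the lowest KO library of Naa50 was small beside the spread within each group. Its log2 fold change was 0.40 (SE 0.11), and 0.19 after a correction for GC content and length. Neither gene was called in the main limma fit. Naa40 was called with no filter or a filter of 10 in 3 libraries. Naa50 was called without KO replicate 3 (0.50) with the filter applied anew, but not on the genes tested with all 6 libraries. Both were called by edgeR and DESeq2 on the recovered reads, 4 of 10 members in each tool. Of the 13078 genes it tested, edgeR called 3.45% higher, and DESeq2 called 4.17% of the 11098 genes with an adjusted p.

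The remaining auxiliary subunits did not separate the groups. Naa16 had a log2 fold change of -0.05 (SE 0.11), which was 0.04 without KO replicate 1. Naa15 had one of 0.51 (SE 0.21), with WT replicate 1 level with the KO libraries and the other WT libraries below them. Without WT replicate 1 that value was 0.73, and without WT replicate 2 it was 0.39. Naa15 rests on 75 to 127 reads per library, for which counting error gives a coefficient of variation of 9.94%. Its WT libraries varied by 28.5%. Naa16, with 819 to 1223 reads, varied by 2.27% in WT and 12.3% in KO. The widest spread among KO libraries was that of Naa25 (28.2%) and the narrowest that of Naa35 (1.64%).

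Other genes of N-terminal processing showed few calls. Of 5 further NAT genes 4 were tested, and none was called by limma or edgeR. At an unadjusted p below 0.05 in limma, 1 was higher and 0 lower, against 9.16% and 8.83% of all genes. Hypk, a chaperone-like inhibitor bound to NatA, had the smallest p, with 1568, 1439 and 1478 normalized read counts in WT and 2042, 1728 and 1960.4 in KO. Its log2 fold change of 0.35 (SE 0.10) had a limma adjusted p of 0.0761, DESeq2 called it (0.023), and 46.3% of its windows match the overlapping genes Serf2 and Serinc4. The log2 fold changes of Naa11, of Naa60, the NAT of the Golgi, and of Naa80, the NAT of actin, were 0.13 (SE 0.12), 0.00 (SE 0.19) and -0.17 (SE 0.16). Naa60 shares 35.1% of its windows with overlapping genes.

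Among 8 tested genes of methionine removal, myristoylation, N-terminal methylation and the nascent chain complex, limma, edgeR and DESeq2 called none. At an unadjusted p below 0.05 in limma, 1 was higher and 1 lower, against 9.16% and 8.83% of all genes. The smallest p was that of Metap1d, a mitochondrial methionine aminopeptidase, with a log2 fold change of -0.41 (SE 0.16, limma adjusted p = 0.167). The median was 0.05.

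Of 19 genes that recognise or prepare N-terminal degradation signals, 2 rose and none fell in limma, where 1.87% of all genes were called higher and 1.41% lower. At an unadjusted p below 0.05 there were 4 and 0 of the 19, against 9.16% and 8.83% of all genes. March6, a membrane ubiquitin ligase of the endoplasmic reticulum whose substrates include proteins with an acetylated N-terminus (chromosome 15, 31455891 to 31531053, minus strand), had 560.02, 509.6 and 525 normalized read counts in WT and 1022, 847 and 775 in KO. All KO libraries were above all WT libraries. March6 rose by 0.72 (SE 0.12, limma adjusted p = 0.0063), and the adjusted p was 0.0457 at most in the 6 fits without 1 library. Ntaq1, which deamidates N-terminal glutamine, rose by 0.88 (SE 0.23, limma adjusted p = 0.0467), from 38.2 ± 5.38 to 70.8 ± 4.26 (SD, n = 3 each). Its call ended without any one of WT replicates 1 (limma adjusted p = 0.142), 2 (0.107) and 3 (0.108) or KO replicates 2 (0.11) and 3 (0.119). The call also ended with DESeq2 (0.0503), a pseudocount of 5 (0.0521), TMM-scaled CPM (0.0546) or a replicate block (0.077). The median of the 19 was 0.07, against -0.01 over all genes.

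Of 6 genes of acetyl-CoA supply none was called by limma, edgeR or DESeq2. At an unadjusted p below 0.05 in limma, 0 were higher and 0 lower, against 9.16% and 8.83% of all genes. The smallest p was that of Acly, the enzyme that makes cytosolic acetyl-CoA from citrate, with 55.4, 51.1 and 64.6 normalized read counts in WT and 70.4, 75.01 and 87.2 in KO. The groups of Acly were apart, with a log2 fold change of 0.44 (SE 0.21) and an adjusted p in limma of 0.291. The median of 0.52 includes genes of very low counts such as the mitochondrial Acss1 (0.37 in WT and 1.40 in KO on average). Of 10 tested GNAT-fold acetyltransferases with other substrates, none was called by limma or edgeR. At an unadjusted p below 0.05 in limma, 2 were higher and 1 lower, against 9.16% and 8.83% of all genes. The lower gene was Esco1, with a log2 fold change of -0.22 (SE 0.10) and no overlap between the groups. Esco2, an acetyltransferase of cohesin, had the smallest p, with a log2 fold change of 0.38 (SE 0.11, limma adjusted p = 0.0674), and DESeq2 called it (0.0164). After the correction for GC content and length its log2 fold change was 0.16. DESeq2 also called Gnpnat1, which acetylates glucosamine 6-phosphate, with a log2 fold change of 0.43 (DESeq2 adjusted p = 0.0366).

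**Figure D5:**
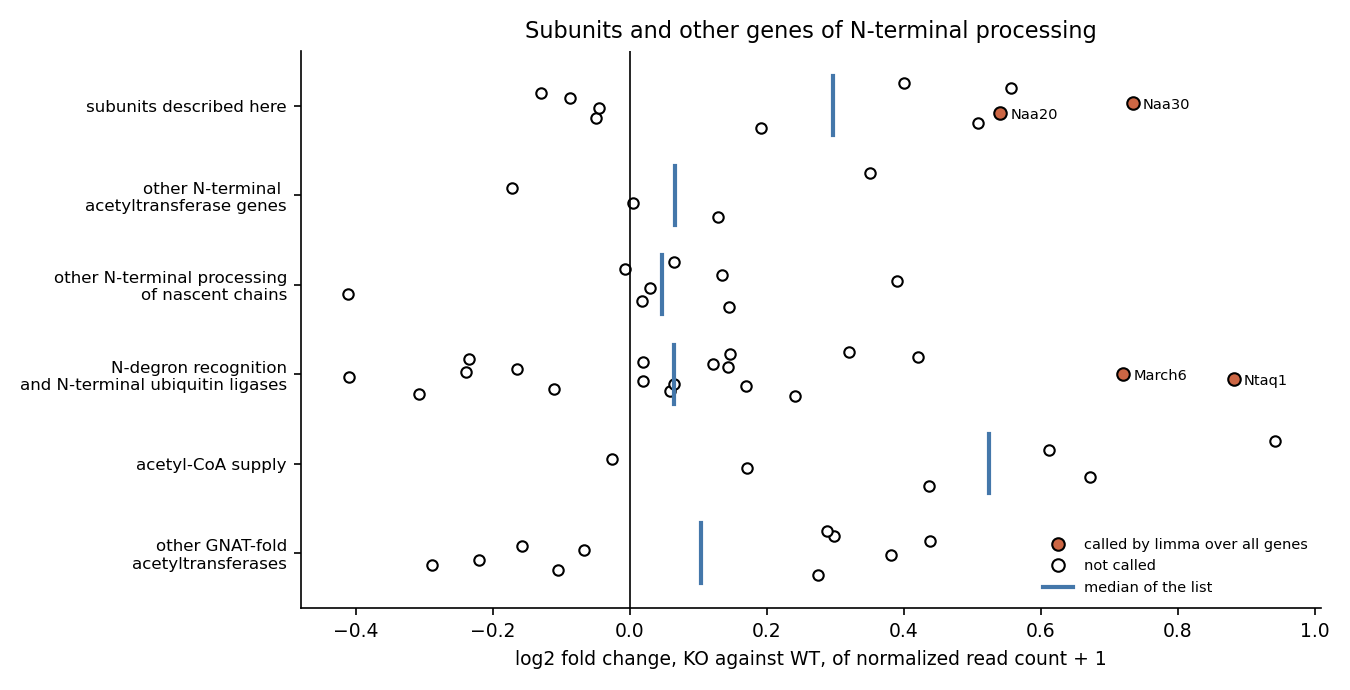
Log2 fold changes, KO against WT, of the 10 subunits and of the genes of 5 related lists, each point a gene, filled where limma called it over all genes, with blue bars for list medians. Naa20 and Naa30 are filled among the subunits, and March6 and Ntaq1 among the N-degron genes.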

How the data were processed

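RNA of 5 pooled GV oocytes per library was amplified by Smart-Seq2, made into Nextera XT libraries without strand or molecular identifiers, and read as 75-base pairs, per the labels' protocols. The submitters' processing notes list STAR, cutadapt, FastQC, DESeq2, DESeq, GRCm38 and mm10. No source used here gives tool versions. The deposited signal is a normalized read count per gene made with Partek and DESeq2, per the file headers. Its values are whole multiples of 1 step in each library, and whole reads were recovered for 100% of values above 0 (tolerance 0.1 reads).

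Testing took 18762 genes whose value reached 1 in 3 or more libraries, analysed as log2(value + 1) with limma-trend (limma 3.58.1, R 4.3.3), 3 KO against 3 WT libraries, no covariate, Benjamini-Hochberg adjusted over all genes. Fold changes are on that scale, which understates changes of low genes. Alternatives were edgeR 4.0.16 (13078 genes, 451 called higher and 338 lower) and DESeq2 1.42.0 on recovered reads, other pseudocounts, filters and scaling, a replicate block, a GC and length correction and leaving out each library. Fits were tested on simulated data with changes larger than that of any member, so changes of the members' size were not covered.

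Members and lists were chosen with earlier results of these data known. All members are named. From each related list, called genes are named, or the 1 of smallest p, and other genes named there were chosen after their values were seen. Of the lists, 3 genes were not matched, and 2 were matched by older symbols. Dates in place of 22 of 24 symbols (March6 among them) were restored by position in GENCODE M21, whose lengths were used. Windows of 75 bases, taken every 25 bases, were aligned with minimap2 2.31-r1302 allowing 1 mismatch.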

Additional observations from a re-analysis of the deposited data

How the results depend on the processing

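Of the 10 subunits, 2 were called higher, against 4 with edgeR, 4 with DESeq2 and 0 to 2 without 1 library, and 0 were lower throughout. The 5 related lists gave 2 higher calls together, against 4 with DESeq2, 1 with a pseudocount of 5, 1 with TMM-scaled CPM, 1 with the replicate block and 1 to 3 without 1 library. Their lower calls were 0, and 2 (Cnot4 and Esco1, named after their values were seen) after the GC and length correction. Over all genes, 351 were higher and 264 lower. Without 1 library, the filter being applied anew, they ran from 71 to 459 and from 41 to 430. On the genes of the 6-library filter, without WT replicates 1 to 3 and KO replicates 1 to 3 in turn, 90, 130, 58, 438, 176 and 39 were higher and 52, 59, 30, 406, 132 and 32 lower. DESeq2 called 401 lower, the replicate block 175 lower (246 higher), and the GC and length correction 307 higher and 354 lower, which turns the balance of directions. The sign of the log2 fold change turned for Naa16 without KO replicate 1 (0.040, range -0.14 to 0.040 without 1 library), for Naa25 without WT replicate 1 (0.037) or KO replicate 1 (0.18, range -0.24 to 0.18), and for Naa38 with the GC and length correction (0.018), none of them called. The cause was not tested.

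Replicate numbers were not found to pair the libraries: the deviations of same-numbered WT and KO libraries from their group means had correlations of -0.08, -0.02 and -0.04 across genes. The replicate block changed no call among the subunits, and Ntaq1 was not called with it (limma adjusted p = 0.077). Leaving out a library was also run with the genes of the 6-library filter, which was added once the data had been seen, as was the coding length. Depth limits Naa15 most, at 75 to 127 reads per library. A count of 0 allows up to 3 reads, and covers counting error only.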
